A study of Mus musculus with 4 samples.

Results

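Small nucleolar RNA and spliceosomal RNA genes were followed across 4 sequencing libraries labelled as mouse islets, the endocrine cell clusters within the pancreas. A gene was included when its symbol began with Snora, Snord, Scarna or Rnu and its counts, summed over the 4 libraries, reached 10. Of the 43629 genes in the count files, 164 had such a symbol and 37 reached that sum, with a median summed count of 37. They were 13 of 41 Snora genes, 19 of 97 Snord genes, 2 of 9 Scarna genes and 3 of 17 Rnu genes. Among the rest, 92 had no count in any library and 35 had between 1 and 9. The summed counts chose the members, so that these genes are detected is not a result. Snord91a lay just inside the limit with a summed count of 10, followed by Snord37 and Snord73a with 11 each, and Snord123 and Snord13 lay just outside with 9 each. All 37 would also have been chosen from the control and labelled knockout libraries alone, without the counts of the other pair.

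The study examined IMP2, the RNA-binding protein encoded by Igf2bp2, in islets of C57BL/6 mice, with 1 library in each group. The control library carries the genotype control, and the library labelled knockout carries the genotype Rip2;IMP2, which the series title describes as lacking IMP2 in islets. Rip2 commonly names an insulin promoter used to drive Cre in beta cells, which would leave the gene in other islet cells, and the labels describe neither the driver nor the allele. The remaining libraries came from wild-type islets and are titled as an RNA immunoprecipitation (RIP) of IMP2 and as IgG, the customary antibody control of a RIP. Ages, sexes and the number of animals behind each library are not given. Igf2bp2 had 255 counts in control and 222 in the labelled knockout, with 186 in the RIP and 458 in IgG, so the targeted gene was not clearly lower in the library labelled knockout. A deletion of some exons need not lower the count of the whole gene, and this was not tested.

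The members make RNAs that guide the modification and processing of other RNAs. Box C/D small nucleolar RNAs (Snord genes) pair with ribosomal RNA and direct methylation of its ribose. Box H/ACA small nucleolar RNAs (Snora genes) direct the conversion of uridine to pseudouridine. Scarna genes make related guides of the Cajal body, a compartment of the nucleus where the RNAs of the spliceosome are modified. Most of these guides are cut from introns of host genes, many of which encode ribosomal proteins or translation factors, while a minority have promoters of their own. The label of the group was only partly met by its members. Rnu3a and Rnu3b1 encode U3, a box C/D RNA needed to process the precursor of ribosomal RNA, so Rnu12, which makes the U12 RNA of the minor spliceosome, was the only spliceosomal RNA among the 37. Rnu2-10, a gene of the U2 RNA, had a summed count of 4 and Rnu1a1, a gene of the U1 RNA, a summed count of 1. Reads that align to several places are not assigned to a gene by counting of this kind, and these RNAs have near-identical gene copies.

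The RNAs on which the comparisons turn are printed 5′ to 3′ from the GRCm38 genome (mm10) with the gene models of GENCODE M21. Among members with a mean of at least 1 CPM, those called different between the labelled knockout and control were Snord14a at chr7:116333171-116333257 (minus strand), inside Rps13, Snora41 at chr1:63179004-63179135 (plus strand), in an intron of Eef1b2, and Snord72 at chr15:5118404-5118484 (plus strand), in an intron of Rpl37. Capitals mark the C box TGATGA where it lies in the first 25 bases, the D box CTGA in the last 20 bases, and in Snora genes the ACA that lies 1 to 5 bases before the 3′ end. Snord14a carried both boxes, Snord72 the D box alone and Snora41 the ACA.
Snord14a: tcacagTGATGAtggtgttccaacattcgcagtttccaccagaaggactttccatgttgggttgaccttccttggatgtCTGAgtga
Snora41: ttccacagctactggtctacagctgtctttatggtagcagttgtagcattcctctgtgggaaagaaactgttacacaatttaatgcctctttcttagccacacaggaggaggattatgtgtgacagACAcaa
Snord72: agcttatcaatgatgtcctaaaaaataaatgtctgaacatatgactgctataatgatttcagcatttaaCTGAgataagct

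The 4 members with the most counts per length in the RIP were Rnu3a at chr10:40258467-40258680 (plus strand, outside any host gene), Snord17 at chr2:144265979-144266216 (minus strand, in an intron of Snx5), Snord69 at chr14:31014287-31014366 (minus strand, inside Gnl3) and Snora28 at chr12:111540941-111541067 (plus strand, inside Eif5). Their lengths run from 80 to 238 bases, and they include box C/D and box H/ACA forms, so they were not of a single class. In Rnu3a only the terminal CTGA is capitalised.
Rnu3a: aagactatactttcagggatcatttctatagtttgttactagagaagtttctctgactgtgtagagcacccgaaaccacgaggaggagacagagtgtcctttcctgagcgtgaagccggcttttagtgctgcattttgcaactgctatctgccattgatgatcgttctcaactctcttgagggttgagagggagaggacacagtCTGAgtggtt
Snord17: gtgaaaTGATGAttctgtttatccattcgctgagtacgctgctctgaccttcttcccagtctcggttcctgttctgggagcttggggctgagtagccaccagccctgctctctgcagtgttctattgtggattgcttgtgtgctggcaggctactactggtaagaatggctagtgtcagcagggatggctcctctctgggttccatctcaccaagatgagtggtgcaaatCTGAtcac
Snord69: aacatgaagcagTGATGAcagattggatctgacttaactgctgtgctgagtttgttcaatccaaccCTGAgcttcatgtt
Snora28: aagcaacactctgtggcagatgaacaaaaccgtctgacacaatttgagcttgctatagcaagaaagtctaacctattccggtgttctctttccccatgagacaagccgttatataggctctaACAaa

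Snora43 at chr2:26637847-26637985 (minus strand) and Snord104 at chr11:106500993-106501062 (plus strand), both outside any host gene, are shown as the most abundant members in islets, both lower in the RIP. Rnu12 at chr15:83149644-83149794 (plus strand) is shown as the only spliceosomal RNA, with the ring-binding Sm site ATTTTTG in capitals.
Snora43: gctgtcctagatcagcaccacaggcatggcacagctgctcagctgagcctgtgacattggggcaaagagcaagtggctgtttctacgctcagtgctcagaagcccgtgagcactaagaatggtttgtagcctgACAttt
Snord104: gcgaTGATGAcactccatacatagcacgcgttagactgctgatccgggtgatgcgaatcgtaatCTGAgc
Rnu12: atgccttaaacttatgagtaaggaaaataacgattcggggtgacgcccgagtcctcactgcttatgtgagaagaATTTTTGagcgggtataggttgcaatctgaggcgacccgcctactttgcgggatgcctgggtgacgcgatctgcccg

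The boxes of each family were read in the members, in their whole family and in unrelated short RNAs. The D box lay in the window in 19 of 19 Snord members, in 97.9% of the 97 Snord genes and in 8.90% of 2100 annotated miRNA hairpins of 60 to 300 bases. The C box TGATGA was found in 11 of 19 members, in 71.1% of all Snord genes and in 0.238% of hairpins. The ACA was found in 13 of 13 Snora members, in 95.1% of the 41 Snora genes and in 14.6% of hairpins, and the H box ANANNA, searched anywhere, in 13 of 13 members but also in 57.8% of hairpins. The Sm site was present in 1 of the 3 Rnu members, 11.8% of the 17 Rnu genes and 0.667% of hairpins. Only the strand of the RNA was searched, the C and D boxes share no bases, and a match describes letters, not a working site.

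Gene counts totalled 26350813 in control and 24275628 in the labelled knockout, against 6025594 in the RIP and 13195732 in IgG. Counts per 1000000 gene counts (CPM) put them on a common scale, on which 1 count is worth 0.0379, 0.0412, 0.166 and 0.0758 in that order. Islet markers were nearly absent from the IgG library: 8 islet endocrine genes, insulin among them, summed to 331116 CPM in control, 364902 in the labelled knockout and 256511 in the RIP but to 1083 in IgG. Its 4 brown fat markers summed to 12233 CPM against 3.07 in control, 2.60 in the labelled knockout and 796 in the RIP, and the lymphocyte markers Ms4a1 and Cd3e were at 0 there. The part of such differences in tissue in any comparison with IgG or the RIP was not tested. Groups of 1 library have no replicate spread, so ratios carry counting intervals and no p-value, and these cover counting error only, since reads are not independent molecules. In bulk RNA, fewer cells of a type and less RNA per cell cannot be told apart.

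Every member had counts in both whole-islet libraries, whereas 17 of 37 had any in the RIP and 6 in IgG. Thinning by formula to the total of the RIP would leave an expected 31.6 members detected in control, 33.5 in the labelled knockout and 5.36 in IgG. The islet libraries alone reach 10 counts for all 37. Detection of every member in them is thus tied to the rule, though not forced by it, and is not read as a result. In all, 20 members were at 0 in both antibody libraries, 11 had counts in the RIP and none in IgG, and no member had counts in IgG and none in the RIP. Over all genes of the files 35.3% had counts in the RIP and 32.3% in IgG. Of that pair, 7.5% had counts in the RIP alone and 4.58% in IgG alone, and 60.2% were at 0 in both. A set of 395 other genes also reached a summed count of 10 and have at most 300 bases of exon. Of these, 50.4% had counts in the RIP, 38.5% in IgG, and 34.9% were at 0 in both. The RIP alone had counts for 26.6% of this set, near the 29.7% of members, and IgG alone for 14.7%. Of the 6 with IgG counts, 4 were among the 7 members that lie in no host gene.

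**Figure D1:**
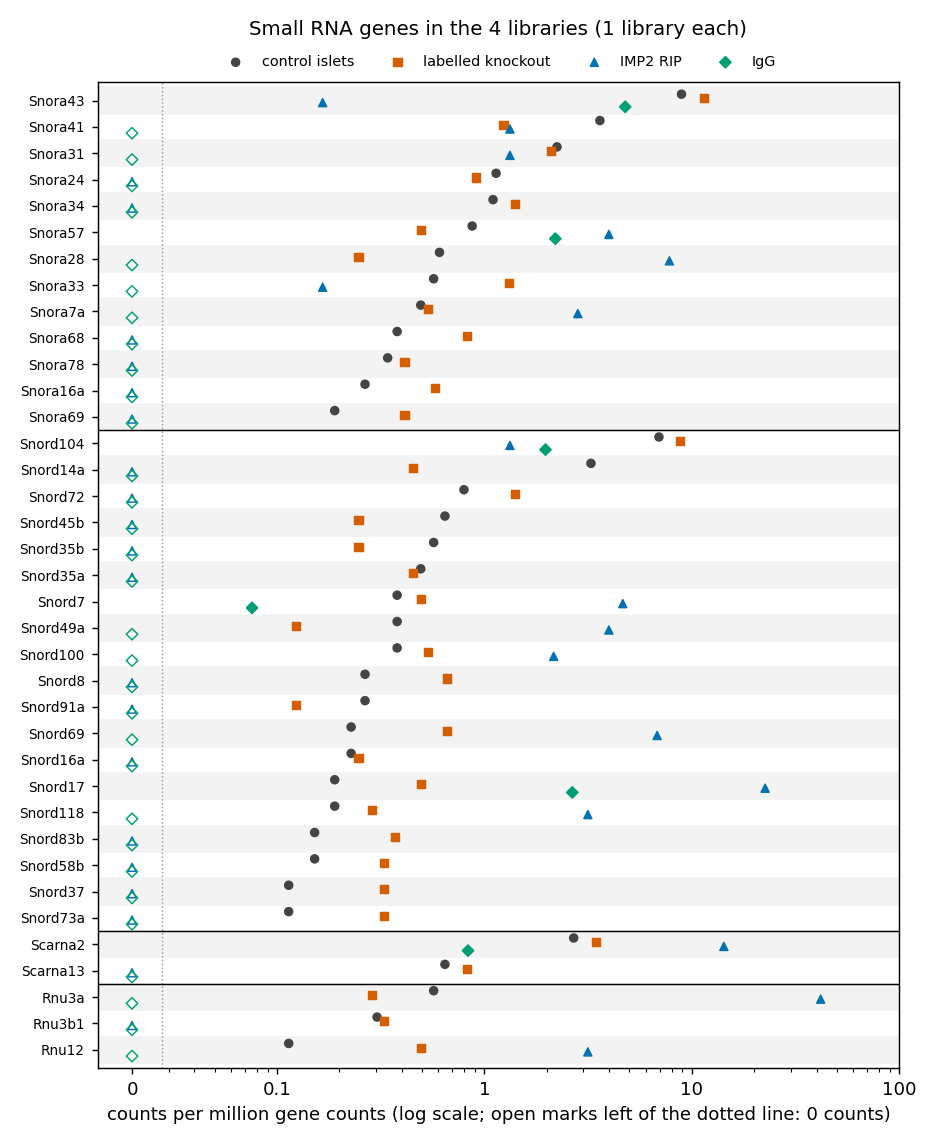
CPM (log scale) of each of the 37 members in the 4 libraries, 1 point per library, grouped by class, with open marks at the left for 0 counts. The control and labelled knockout points lie near each other for most genes, and the RIP points are at 0 for 20 genes, to the right of control for 12 and to its left for 5.

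Summed by class, the box H/ACA genes held the largest share in whole islets and the Rnu and Snord genes in the RIP. The Snora sum was 20.7 CPM in control, 22.0 in the labelled knockout but 17.6 in the RIP and 6.97 in IgG. For Snord the sums were 15.7, 16.6, 44.6 and 4.70 CPM in the same order. Scarna genes summed to 3.34, 4.28, 14.3 and 0.834 CPM. The 3 Rnu genes summed to 0.987, 1.11, 45.0 and 0 CPM, so this class was low in islets, high in the RIP and without a read in IgG. Single genes carried these sums: Snora43 made up 43.0% of the Snora counts in control, Snord17 50.6% of the Snord counts in the RIP, and Rnu3a 93.0% of the Rnu counts there.

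**Figure D2:**
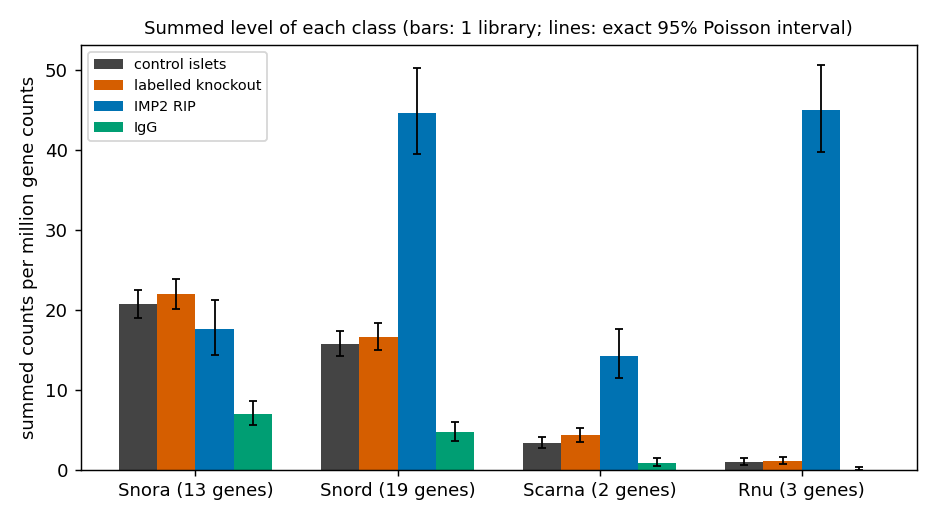
Summed CPM of the Snora, Snord, Scarna and Rnu members in the 4 libraries, with exact 95% intervals that cover counting error only. The Rnu sum stands at 45.0 in the RIP and at about 1 in both islet libraries, while the Snora sum is 17.6 in the RIP against 20.7 in control.

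Levels between genes were compared per length. In control islets Snord104 had the highest level, 99.2 CPM per kilobase, followed by Snora43 with 64.2, Snord14a with 37.5, Snora41 with 27.3 and Snora31 with 17.2. In the RIP the order was another: Rnu3a had 195 CPM per kilobase, Snord17 94.8, Snord69 85.1, Snora28 61.4 and Snord49a 55.3. None of the 5 highest genes of control was among the 5 highest of the RIP. Short RNAs of this size are recovered poorly by standard libraries, so these levels describe what was sequenced.

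The first comparison asked which members differed between islets labelled knockout and control islets. Snord14a and Snora41 were lower in the labelled knockout and Snord72 was higher, while no class sum passed the limit. A ratio was called when its exact 95% interval excluded 1 and it was at least 1.5-fold either way, among genes with a mean of at least 1 CPM over both libraries, called measured here. Of the 9 members measured, 1 was higher and 2 were lower, where 6.13% of all measured genes were higher and 15.3% were lower. Both counts are too small to set apart from those shares. Snord72 was below 1 CPM in control and Snord14a in the labelled knockout. Each was thus measured only through the library where it is high. The 4 lymphocyte markers summed to 714 CPM in control and 123 in the labelled knockout, and their part in these differences was not tested.

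Snord14a, a box C/D guide for the RNA of the small ribosomal subunit, had 86 counts in control, 11 in the labelled knockout and 0 in both other libraries. It was high in control alone. The labelled knockout stood at 0.144 of control (95% interval 0.0692 to 0.270), 6.96-fold lower. Its host Rps13, a protein of the small ribosomal subunit, had 115 and 75 counts, a ratio of 0.733 (0.541 to 0.989), not called. Snord14a overlaps an exon of Rps13 in the annotation, so that the reads of the pair are hard to separate.

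Snora41, a box H/ACA RNA, had 95 counts in control, 30 in the labelled knockout but 8 in the RIP and 0 in IgG. The ratio of the labelled knockout to control was 0.355 (0.227 to 0.540), 2.82-fold lower. Eef1b2, its host and a subunit of a translation elongation factor, was at 0.734 of control (0.708 to 0.759) and so changed less in these libraries. Snora41 overlaps no exon of another gene.

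Snord72 had 21 counts in control and 34 in the labelled knockout, and none in the RIP or IgG. The ratio was 1.82 (1.03 to 3.30), and the call was lost when library totals replaced the scaling. Its host Rpl37, a protein of the large ribosomal subunit, was at 0.907 of control. The most abundant members differed less: Snora43 had 235 counts in control and 279 in the labelled knockout, a ratio of 1.33 (1.12 to 1.59), and Snord104 had 183 and 214, a ratio of 1.31 (1.07 to 1.61). Both intervals excluded 1, and neither ratio reached 1.5-fold.

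Most members lay below the minimum, so the direction over all 37 was described as well. The ratio was above 1 in 25 and below 1 in 12, and the median log2 ratio was 0.40, against 0.03 over all genes with a count. Without the minimum, 6 members were higher and 2 lower, beside 5.06% and 11.2% of all genes with a count. The additional higher members were Rnu12 with 3 counts in control and 12 in the labelled knockout (ratio 4.50, interval 1.21 to 24.8), Snord69 with 6 and 16 (3.0, 1.11 to 9.35), Snora33 with 15 and 32 (2.40, 1.26 to 4.77), Snora68 with 10 and 20 and Snord8 with 7 and 16. These are small counts, and the calls of Snora68 and Snord8 were lost with library totals. Among members with 3 to 30 counts in control, 6 of 31 were called higher (19.4%), beside 9.02% of the 3915 other genes in that range that also reached a summed count of 10. That range is set by the control count, the denominator of the ratio, and it leaves out Snord14a and Snora41, the members called lower. These shares can therefore not be read as a result about the members. Summed over class, the ratio was 1.10 for Snora (0.972 to 1.24), 1.09 for Snord (0.949 to 1.25), 1.33 for Scarna (0.990 to 1.79) and 1.17 for Rnu (0.656 to 2.08). The Snora sum turned to 0.665 (0.522 to 0.844) and was called lower when members that overlap an exon of another gene were left out, which removes Snora43. In that setting the Rnu sum, then Rnu12 alone, was called higher at 4.50.

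**Figure D3:**
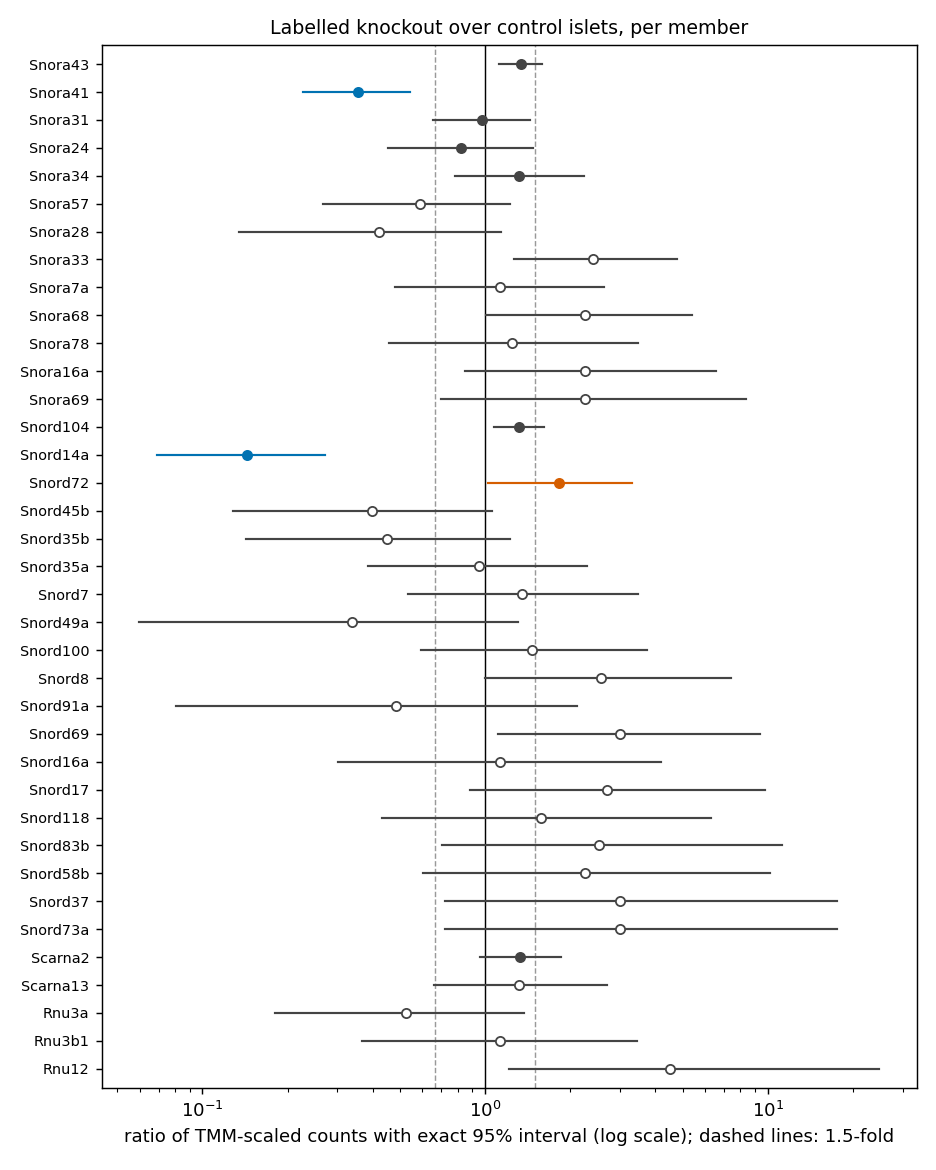
Ratio of the labelled knockout to control (log scale) with exact 95% intervals for the 37 members, in orange where called higher, in blue where called lower and in grey where not called, with open marks below a mean of 1 CPM. Among filled marks Snord14a at 0.144 and Snora41 at 0.355 lie farthest to the left, and most open marks have intervals that span 1.

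Members were next set beside the genes that host them. By the annotation 30 members lie inside a gene on the same strand, 13 of them inside genes of ribosomal proteins and 4 inside genes of translation factors or Tpt1. Host counts were in the files for 28 of these. In the labelled knockout 25 of the 27 different hosts were measured, of which none was called higher and 3 were called lower. Of all measured genes 6.13% were higher and 15.3% lower, and both counts of hosts are too small to set apart from those shares. The median log2 ratio of hosts was -0.38, against 0.0024 over all measured genes. The ratio of the member was above that of its host in 21 of 28 pairs. Of the 25 measured hosts 20 had a ratio below 1, and most members had small counts. No share for other genes stands beside this count of pairs, so it is not read as a result about the members.

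Proteins that bind these RNAs were followed from lists of known components. All 4 core proteins of box H/ACA particles were measured, and 2 were lower in the labelled knockout: Dkc1, the pseudouridine synthase, at 0.535 of control (0.469 to 0.608) and Nhp2 at 0.579 (0.506 to 0.663), while none was higher. Of 5 core proteins of box C/D particles 1 was lower, Fbl, the methyltransferase, at 0.587 (0.492 to 0.700). Of 11 assembly factors 1 was lower, Tcof1 at 0.491 (0.453 to 0.533), the nucleolar protein treacle. Coil, the scaffold of Cajal bodies, was higher at 1.55, the only call among 5 proteins of that compartment. Among proteins of spliceosomal particles, 1 of 14 ring proteins was higher (Lsm7, 1.71), and 2 of 19 particle-specific proteins were lower (Eftud2, 0.664, and Snrnp25, 0.595). None was called of 13 measured genes for assembly by the SMN complex or of 13 for transcription and processing of spliceosomal RNA. Lists of 4 or 5 genes are too short to be read against the 15.3% of all measured genes called lower. Long noncoding host transcripts of small nucleolar RNAs had 2 of 11 higher, Snhg11 at 2.0 and Snhg15 at 1.53, and none lower.

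The second comparison set the RIP beside IgG, the control antibody. Rnu3a, Snora28, Snord69, Snord49a and other members had reads in the RIP and none in IgG, and Snora43 went the other way. With a limit of 2-fold, 11 of 14 measured members were higher and 2 were lower, where 43.2% of all measured genes were higher and 30.5% lower. Of the 11, 10 were below 1 CPM in IgG and so were measured only through the RIP, where they are high. Of the 2 lower, Snora43 was below 1 CPM in the RIP and so was measured only through IgG. Without the minimum, 13 of the 17 members with a count in either library were called higher (76.5%) and 2 lower (11.8%), beside 40.4% and 29.3% of all genes with a count, while the other 20 members had none in either. The libraries differ in tissue markers as given above, and brown fat or islet origin and the antibody cannot be told apart.

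Rnu3a, the U3 gene, had 15 counts in control, 7 in the labelled knockout but 252 in the RIP and 0 in IgG. It stood at least 114-fold higher in the RIP than in IgG, against a floor of 3 counts in IgG. Scarna2, a guide of the Cajal body, had 71, 84, 86 and 11 counts in the same order, 10.6-fold higher in the RIP than in IgG (5.65 to 22.1). Snord17 had 5, 12, 136 and 35, 5.28-fold higher (3.62 to 7.89), and so was raised in both antibody libraries over islets.

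Other members at 0 in IgG were Snora28 with 47 counts in the RIP, at least 21.3-fold higher, Snord69 with 41, at least 18.6-fold, and Snord49a with 24, at least 10.9-fold. Rnu12 and Snord118, the U8 RNA that takes part in processing the large-subunit ribosomal RNA, each had 19 counts and were at least 8.60-fold higher. Snora7a was at least 7.70-fold and Snord100 at least 5.89-fold higher. Snord7, with 28 counts and 1, was 38.0-fold higher (6.29 to 1555). Snora57 did not differ beyond its interval, with 24 counts in the RIP and 29 in IgG, a ratio of 1.12 (0.626 to 2.0), although totals taken without Gm42418, hormone and acinar genes gave 3.08, called higher. Snora43 had 1 count in the RIP and 63 in IgG, a ratio of 0.0216 (0.000537 to 0.125). Snord104 had 8 and 26, a ratio of 0.418 (0.164 to 0.951), which was not called with library totals and turned to 1.15 with totals taken without Gm42418, hormone and acinar genes. By class, Snord was 5.89-fold higher (4.46 to 7.90), Scarna 10.6-fold, Rnu at least 123-fold, and the Snora ratio of 1.56 (1.17 to 2.09) was not called, but was called at 2.52 with library totals and at 4.92 without Snora43.

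The RIP was also set beside control islets, which are closer to it than IgG in islet markers. Other tissue markers still differed. Brown fat markers summed to 796 CPM in the RIP and 3.07 in control, and 4 adipocyte markers to 926 and 40.1. Lymphocyte markers summed to 83.0 and 714 CPM. The part of these differences was not tested. This comparison shares the RIP library with the one before it. Of 17 measured members 12 were higher and 4 were lower, where 16.8% of all measured genes were higher and 24.3% lower. Of the 12, 11 were below 1 CPM in control, and of the 4, Snora43 and Snord14a were below 1 CPM in the RIP. These were measured only through the library where they are high. Over all 37 members the median log2 ratio was -1.05, against -0.21 over all genes with a count, because 20 members had no count in the RIP. Without the minimum 12 members were higher and 6 lower, beside 12% and 20.1% of genes with a count. Low genes in the RIP were either absent or present at many counts. Of 31 members with 3 to 30 counts in control, 61.3% were at 0 in the RIP and 11 were called higher (35.5%), beside 73.5% at 0 and 19.6% called higher of the 3915 other genes in that range with a summed count of at least 10. For the 197 of these with exons of 300 bases or less in all, 70.6% were at 0 and 23.9% were called higher. The range is again set by the control count, the denominator of the ratio, and it leaves out the 4 measured members called lower.

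The largest ratios were those of Snord17, 144-fold higher than control (60.4 to 452), and Rnu3a, 89.2-fold (53.0 to 162). Snord69 was 36.3-fold higher (15.3 to 105), Rnu12 33.6-fold (9.90 to 177) from 3 counts in control, and Snord118 20.2-fold (7.28 to 69.1). The intervals are wide because control held between 3 and 15 counts of each. Snora28 was 15.6-fold higher, Snord7 14.9-fold, Snord49a 12.7-fold, Snora7a 6.94-fold, Snord100 6.90-fold, Scarna2 6.43-fold and Snora57 5.54-fold. Both box classes were thus among the 12.

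Snora43, with 235 counts in control and 1 in the RIP, was at 0.0226 of control (0.000569 to 0.127). Snord104, with 183 and 8, was 4.31-fold lower, and Snora41, with 95 and 8, 2.24-fold lower, a call lost with DESeq2 size factors (ratio 0.496). Snord14a, with 86 counts and none, was at least 5.40-fold lower, against a floor of 3 counts. Those 4 are the members with the highest levels in control islets, also per length. Class sums differed accordingly: Snora stood at 1.03 of control (0.829 to 1.27), Snord was 3.44-fold higher (2.94 to 4.02), Scarna 5.19-fold and Rnu 55.3-fold (36.9 to 86.2). Without its most abundant member Snord17, the Snord ratio was 1.72 (1.41 to 2.10) and no longer called. Without Snora43 the Snora ratio was 1.79 (1.42 to 2.24), also not called. The gap between the Snora and Snord sums thus rested on Snora43 and Snord17.

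**Figure D4:**
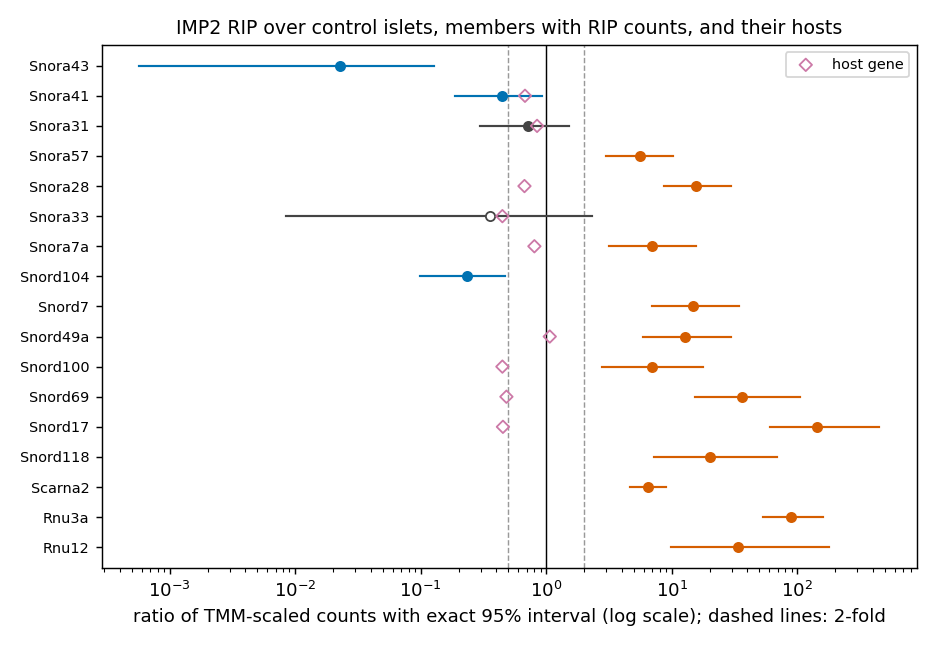
Ratio of the RIP to control (log scale) with exact 95% intervals for members that have counts in the RIP, in orange where called higher, in blue where called lower and in grey where not called, with open marks below a mean of 1 CPM and the ratio of the host gene beside each where it has one with counts in the RIP. Hosts lie between 0.447 and 1.07 next to members called higher, and the host of Snord7, AA465934, had no count in the RIP and is not drawn.

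Members outside a host gene by the annotation were detected in the RIP more often than those inside one. All 7 outside (Snora43, Snord104, Rnu3a, Scarna2, Snora57, Rnu12 and Snord118) had counts there, as did 10 of 30 inside a host. For Snora43 this was 1 count, against 235 in control. Control counts ran from 3 to 235 outside a host and from 3 to 95 inside, and the part of level in this was not tested. Where a hosted member was high, its host was not: Snord17 was 144-fold higher while Snx5, a sorting nexin, was at 0.452 of control, Snord69 was 36.3-fold higher with Gnl3, a nucleolar GTPase, at 0.482, and Snora28 was 15.6-fold higher with Eif5, a translation initiation factor, at 0.671. Snora7a was raised with its host Rpl32 at 0.804, and Snord49a with 2410006H16Rik at 1.07. Among the hosts, 7 of 25 measured were lower in the RIP than in control, near the 24.3% of all measured genes, and none was higher. Conversely, 15 of the 18 hosted members at 0 in the RIP had a host with reads there, from 56 counts to 5090. In control these 15 guides had 3 to 29 counts and their hosts 229 to 48815. Host reads without a read of the guide therefore say little about the pair.

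Counts in the RIP may stand for fewer molecules than reads, and a rough estimate was made. Genes with over 5 counts in a library that were at 0 in both islet libraries had a median count of 18 in the RIP (230 genes) and 21 in IgG (121 genes), taken as the reads made from 1 molecule. The limit of 5 counts and RNA of another tissue can raise these medians, and 21.9% of other genes with 3 to 30 control counts and any RIP count had 1 to 4 there. By that estimate the 252 counts of Rnu3a stand for 14 molecules and the 136 of Snord17 for 7.56, and members with 13 to 28 counts for about 1. With counts so divided, only Rnu3a was called higher over IgG, at a lower bound of 3.86-fold, beside 15.6% of all measured genes, and no member was lower. Over control 6 members were called higher (Rnu3a, Scarna2, Snora28, Snord17, Snord69 and Snord7), beside 8.60% of genes, and no member was lower beside 6.29%. In IgG over control, 1 member was higher (Snord17) and none lower on this basis, beside 22.2% and 25.8% of genes.

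Other structured RNAs and proteins of the particles gave values in both directions in the RIP. Of 5 measured structured RNAs outside the 4 families, 3 were higher than in control: Rn7s1 at 69.0-fold (17.3 to 600) and Rn7s2 at 8.85-fold, both genes of the signal recognition particle RNA, and Vaultrc5, a vault RNA, at 8.63-fold. Rn7sk, the RNA that holds the elongation factor P-TEFb inactive, was at 0.796 and was not called. Gm42418, which lies over ribosomal RNA sequence, took 1.53% of gene counts in control, 1.70% in the labelled knockout but 17.6% in the RIP and 3.57% in IgG, so it too was highest in the RIP, and its part was not tested. Of the 9 messages of core proteins of both box classes none was higher and 3 were lower, Nop56 at 0.200 of control, Fbl at 0.113 and Dkc1 at 0.368. Of 15 ring proteins 4 were higher, Snrpg at 7.5-fold (5.88 to 9.60), Snrpf at 4.29-fold, Lsm5 at 3.02-fold and Lsm7 at 2.31-fold, and 1 was lower, Lsm3 at 0.325. Assembly factors of small nucleolar particles had 2 of 11 higher (Shq1, 2.65, and Znhit3, 2.42) and 3 lower (Rpap3, Ruvbl2 and Ruvbl1). Host transcripts without a protein had none higher and 2 lower of 11, Snhg5 and Epb41l4aos. Over all measured genes 16.8% were higher than in control and 24.3% lower. Lists of 5 to 15 genes are too short to be read against these shares.

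The last comparison set IgG beside control and shares a library with each of the others. Of 8 measured members 2 were higher, Snord17 at 26.3-fold (10.3 to 86.1) and Snora57 at 4.74-fold (2.65 to 8.58), where 25.7% of all measured genes were higher. Another 3 were lower, where 47.3% of genes were: Snora41 at least 8.42-fold, Snord14a at least 7.63-fold and Snora31 at least 5.23-fold, each with no read in IgG. The members called higher were below 1 CPM in control, so every called member was measured only through the library where it is high. The Snora57 call was lost with totals taken without Gm42418, hormone and acinar genes (ratio 1.70). Snora43 had 63 counts in IgG against 235 in control, a ratio of 1.01 (0.751 to 1.34) that depended on the scaling, with 0.535 by library totals and 1.24 by DESeq2 size factors. Both counts were near or below those shares. Without the minimum 2 of 37 were higher and 9 lower, beside 17.6% and 36.7% of genes with a count. The class sum was called lower for Scarna at 0.470 (0.226 to 0.882), a call lost with DESeq2 size factors (0.580), and for Rnu, with 0 counts against 26, a call lost without Rnu3a. With library totals the Snora (0.336) and Snord (0.298) sums were called lower as well.

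The annotation limits several of these values. By GENCODE M21, 17 members overlap an exon of another gene, 12 of them an exon of their host and 4 a second entry of the same symbol, and 20 overlap none. Snora43 is the main case: a second entry of 127 bases lies wholly within its 139 bases, leaving 12 bases outside, and that entry had 0 counts in all libraries. Rnu3a is likewise covered by a second entry of its symbol. The models used for counting are not stated in the labels, so the bases behind these counts may differ from those printed.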

How the data were processed

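The authors deposited raw read counts for each gene, with a file for each library. Per the submitters' processing notes, the authors used STAR and HTSeq with the mm10 build. Versions, annotation release and strand option are not given in the sources used here. Closing entries that name no gene held 50.8% (control), 50.3% (labelled knockout), 72.4% (RIP) and 70.5% (IgG) of the deposited total and stayed out of library sizes. GENCODE M21 gave symbols and coordinates for 42548 of 43629 identifiers. For each pair of libraries, TMM factors came from edgeR 4.0.16 (R 4.3.3) over all genes, and ratios carry exact 95% Clopper-Pearson intervals. For log2 medians, 0.5 counts were added. Folds against a library at 0 are bounds against 3 counts there. The ratio script was tested on simulated data. Scaling by totals, by totals without Gm42418, hormone and acinar genes, and by DESeq2 1.42.0 size factors, other minimum levels, a summed count of 50, members free of exon overlap and class sums without the most abundant member were tried. Division by reads per molecule and the range of 3 to 30 control counts were chosen after seeing the data. Members named are the most abundant in each class, those called in each comparison and those at the limit, with hosts, and up to 4 genes of each list. A result on 1 host gene is not reported here. Members and lists were chosen with earlier results of these data known. Scripts ran in Python 3.11.15 (pandas 2.3.3, SciPy 1.17.1, NumPy 2.4.6), with figures from Matplotlib 3.10.9.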

Additional observations from a re-analysis of the deposited data

How the results depend on the processing

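No paired analysis was possible because each group has 1 library. Of 90 class sums under alternatives, 68 kept direction and call. In the RIP over control 2 without a call changed side of 1: Snora, 1.03, was 0.849 with library totals and 0.976 with reduced totals, which leave out Gm42418, hormone and acinar genes. Of 62 counts of called members, 33 stayed within 1.5 times. For the labelled knockout over control, members called higher were 0 with library totals, 6 without a minimum and 0 at a minimum of 5 CPM, and members called lower were 1 without exon overlaps and 0 at 5 CPM. Without exon overlaps the Snora sum gained a call as lower at 0.665 and the Rnu sum a call as higher at 4.50. Without Snora43 the Snora sum was 0.918, on the other side of 1 and again not called. For the RIP over IgG, members called higher were 6 without exon overlaps, 3 at 5 CPM, 6 at a summed count of 50 and 1 on molecules. Members called lower were 1 with library totals, 1 with reduced totals, 1 without exon overlaps, 0 at 5 CPM and 0 on molecules. The Snora sum gained a call at 2.52 with totals, 4.29 with reduced totals and 4.92 without Snora43, and the Scarna sum of 10.6 lost its call on molecules. For the RIP over control, members called higher were 7 without exon overlaps, 3 at 5 CPM, 7 at a summed count of 50 and 6 on molecules, and members called lower were 2 without exon overlaps, 0 at 5 CPM and 0 on molecules. The Snord sum was 1.72 without Snord17, and the Scarna bound (no counts in the RIP) 0.937 without Scarna2. For IgG over control, members called higher were 1 with reduced totals, 0 at 5 CPM and 1 on molecules, and members called lower were 5 with totals, 6 with reduced totals, 9 without a minimum, 0 at 5 CPM and 0 on molecules. The Snora sum gained a call at 0.336 with totals, 0.227 with reduced totals and 0.351 without Snora43, and the Snord sum at 0.298, 0.202 and, without Snord17, 0.248. Calls were lost for the Scarna sum with size factors (0.580, up to 1.09), without exon overlaps (0.582, up to 1.11) and on molecules (0.470, up to 4.34), and for the Rnu bound without Rnu3a (1.03) and on molecules (0.434, up to 12). Causes were not tested, except that higher minimums and fewer members leave fewer genes to call. Library totals moved all log2 ratios by 0.69 for the RIP over IgG and by -0.91 for IgG over control. A count of 0 in the RIP allows up to 0.498 CPM.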
